A study of Mus musculus with 2 samples.

Results

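Kinesin genes were read in testes of 17 day old mice, wild type or UBR2-/-, on 1 array per genotype. They were chosen by symbol, as all probe sets whose single gene symbol began with Kif, Kifc or Klc and a number, or with Kifap. This gave 72 of 20380 probe sets and 32 of 12393 genes. Of these, 10 encode motors of the spindle and of cell division (mitotic), 6 encode motors of cilia and flagella (ciliary) and 15 encode motors or light chains that carry vesicles and organelles (cargo), while Kif12 was left unclassed. Both genotypes were of a mixed 129SV and C57BL strain, and the wild type mice are the controls. The UBR2-/- mice lack UBR2, an enzyme that tags proteins with ubiquitin through their N-end residues and that has been studied in male meiosis; how the allele was made is not stated in the labels. The labels name 2 testes from different mice of a litter for each genotype, with no word on pooling of the RNA.

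Kinesins are motor proteins that use ATP to walk along microtubules or to shorten them. Dividing cells need them to build the spindle, move chromosomes and split, and ciliated cells need the kinesin-2 family to carry intraflagellar transport trains, the protein complexes that build a cilium or a sperm tail. In the testis both kinds meet, because germ cells pass through mitosis and meiosis and then grow a flagellum. Ciliary genes are commonly regulated by RFX transcription factors, whose binding sites contain the letters GTTGCC, and genes of late cell cycle by complexes that read the CHR element, TTTGAA.

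Promoter windows of 300 bases, from 250 before to 50 after the gene start, came from RefSeq (GRCm38.p6) and were matched for 26 of the 32 genes by symbol. Ciliary kinesins whose window holds GTTGCC are shown first, in lower case with the match in capitals, since they include the motor with the largest difference between the arrays and 2 that differed far less.
Kif9, chr9:110476708-110477007, plus strand: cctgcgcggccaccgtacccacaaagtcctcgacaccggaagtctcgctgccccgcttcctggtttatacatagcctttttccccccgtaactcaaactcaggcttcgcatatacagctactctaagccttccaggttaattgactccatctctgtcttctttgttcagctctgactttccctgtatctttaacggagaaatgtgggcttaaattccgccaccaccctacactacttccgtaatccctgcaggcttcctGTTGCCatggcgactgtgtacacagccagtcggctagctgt
Kif3a, chr11:53567119-53567418, plus strand: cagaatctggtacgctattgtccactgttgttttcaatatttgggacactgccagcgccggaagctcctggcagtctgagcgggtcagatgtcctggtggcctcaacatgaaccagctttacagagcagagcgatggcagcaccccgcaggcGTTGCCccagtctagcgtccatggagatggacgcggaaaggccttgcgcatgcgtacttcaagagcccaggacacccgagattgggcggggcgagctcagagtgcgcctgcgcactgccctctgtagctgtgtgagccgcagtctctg
Kif17, chr4:138262001-138262300, plus strand: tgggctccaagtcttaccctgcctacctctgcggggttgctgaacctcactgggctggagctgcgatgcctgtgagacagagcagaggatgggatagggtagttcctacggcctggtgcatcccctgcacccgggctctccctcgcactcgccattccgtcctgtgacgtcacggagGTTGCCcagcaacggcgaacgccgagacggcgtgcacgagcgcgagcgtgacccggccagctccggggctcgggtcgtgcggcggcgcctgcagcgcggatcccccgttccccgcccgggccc
The mitotic kinesins Kif4, Kif11 and Kif23 are shown for the CHR element, with TTTGAA or its reverse complement in capitals.
Kif4, chrX:100625815-100626114, plus strand: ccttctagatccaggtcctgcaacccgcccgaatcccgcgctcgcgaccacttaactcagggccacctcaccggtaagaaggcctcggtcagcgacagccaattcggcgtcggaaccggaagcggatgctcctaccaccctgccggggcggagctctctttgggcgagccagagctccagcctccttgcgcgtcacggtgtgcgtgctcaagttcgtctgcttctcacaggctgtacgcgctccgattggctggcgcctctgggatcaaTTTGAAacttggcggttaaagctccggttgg
Kif11, chr19:37376132-37376431, plus strand: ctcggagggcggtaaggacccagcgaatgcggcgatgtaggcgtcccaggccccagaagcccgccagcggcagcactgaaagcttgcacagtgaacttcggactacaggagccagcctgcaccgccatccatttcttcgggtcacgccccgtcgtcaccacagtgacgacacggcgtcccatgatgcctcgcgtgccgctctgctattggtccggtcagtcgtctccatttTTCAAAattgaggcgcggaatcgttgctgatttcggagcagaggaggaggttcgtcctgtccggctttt
Kif23, chr9:61946750-61947049, minus strand: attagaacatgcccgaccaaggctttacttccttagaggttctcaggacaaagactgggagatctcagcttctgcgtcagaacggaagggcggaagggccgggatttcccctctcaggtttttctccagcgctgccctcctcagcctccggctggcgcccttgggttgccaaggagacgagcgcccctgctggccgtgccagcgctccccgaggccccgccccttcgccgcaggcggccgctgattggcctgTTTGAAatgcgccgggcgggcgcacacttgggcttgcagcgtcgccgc

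Each element was counted in every class of motors. GTTGCC, sought on both strands like every motif here, was present in 4 of 6 ciliary genes (Kif9, Kif3a, Kif3c and Kif17), 3 of 9 mitotic and 3 of 10 cargo genes, against 14.1% of 27025 genes in the table. TTTGAA was present in 7 of 9 mitotic genes, 0 of 6 ciliary and 1 of 10 cargo genes, against 20.2% of all genes. In 6 of the 7 mitotic genes a match began between 19 bases before and 29 bases after the start. CCAAT, the NF-Y motif that often lies beside a CHR element, was present in 6 of 9 mitotic, 3 of 6 ciliary and 3 of 10 cargo genes against 41.1% of all genes. Kifc1 and Kifc5b, which are near-identical copies, were counted as separate mitotic genes. Both hold CCAAT and a TTTGAA match near the start, so these counts are not of independent promoters. The MYB type motif AACNGTT was found in 0 members of these 3 classes against 5.01% of all genes. No match of a motif overlapped that of another. A match describes letters in a window and is not a measured binding site.

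**Figure D1:**
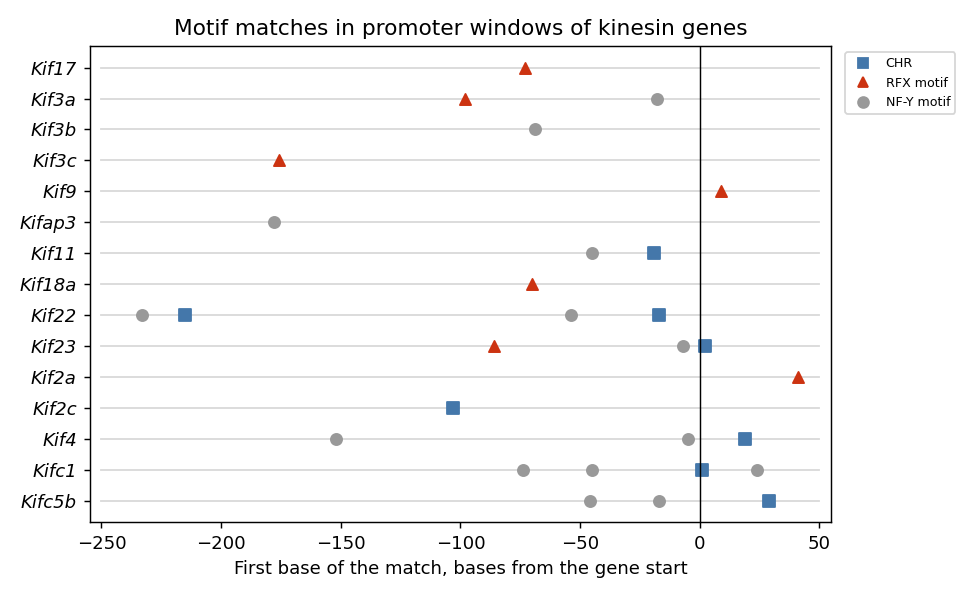
Matches of 3 motifs in the promoter windows of ciliary genes (upper 6 lines) and mitotic genes (lower 9 lines); the horizontal axis gives the first base of each match in bases from the gene start, and squares, triangles and circles stand for CHR, RFX and NF-Y motifs. CHR matches lie near the start in 6 mitotic genes, while in the Kif9 window drawn the RFX match begins 9 bases after the start. Kif9 has another window, not drawn, in which the match begins 27 bases before the start.

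Values are linear probe set signals on the authors' scale, and ratios are log2 of the UBR2-/- signal over the wild type signal. Signals below the 40th percentile of an array, 24.4 for wild type and 24.7 for UBR2-/-, were raised to that floor, and a gene was compared when the mean signal of its brightest probe set reached the mean floor. The arrays were alike in scale, with median signals of 48.7 and 48.75, and Ubr2 itself was at 57.2 in wild type and 14.3 in UBR2-/- testes by 1 probe set whose place relative to the deleted part is not known here. With n = 1 array a group there is no replicate error and no test, so every difference describes these arrays. The SD of a single probe set's log2 ratio, taken from pairs of probe sets of a gene, was 0.26 for pairs with a mean signal below 146.5, 0.20 up to 329.1 and 0.16 above, and it leaves out error between arrays and animals.

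Of the 32 kinesin genes 23 were compared. Kif9 passed 2-fold as lower in UBR2-/- testes, 0 passed it as higher and 22 lay between. Among all 8091 compared genes, 3.52% were at least 2-fold lower and 0.346% at least 2-fold higher, so 1 of 23 is near the background. The median log2 ratio of the kinesins was -0.09, against 0.07 for all genes with quartiles of -0.17 and 0.28. Below 0 were 15 of the 23 (65.2%), against 41% of all genes. At the level of probe sets, 47 of 72 passed the floor rule, with 32 below and 15 above 0. By class the medians were -0.18 for 6 ciliary, -0.27 for 8 cargo and 0.14 for 9 mitotic genes. The mitotic median turned to -0.21 with spike-in scaling and to -0.05 with the floor at the 60th percentile.

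**Figure D2:**
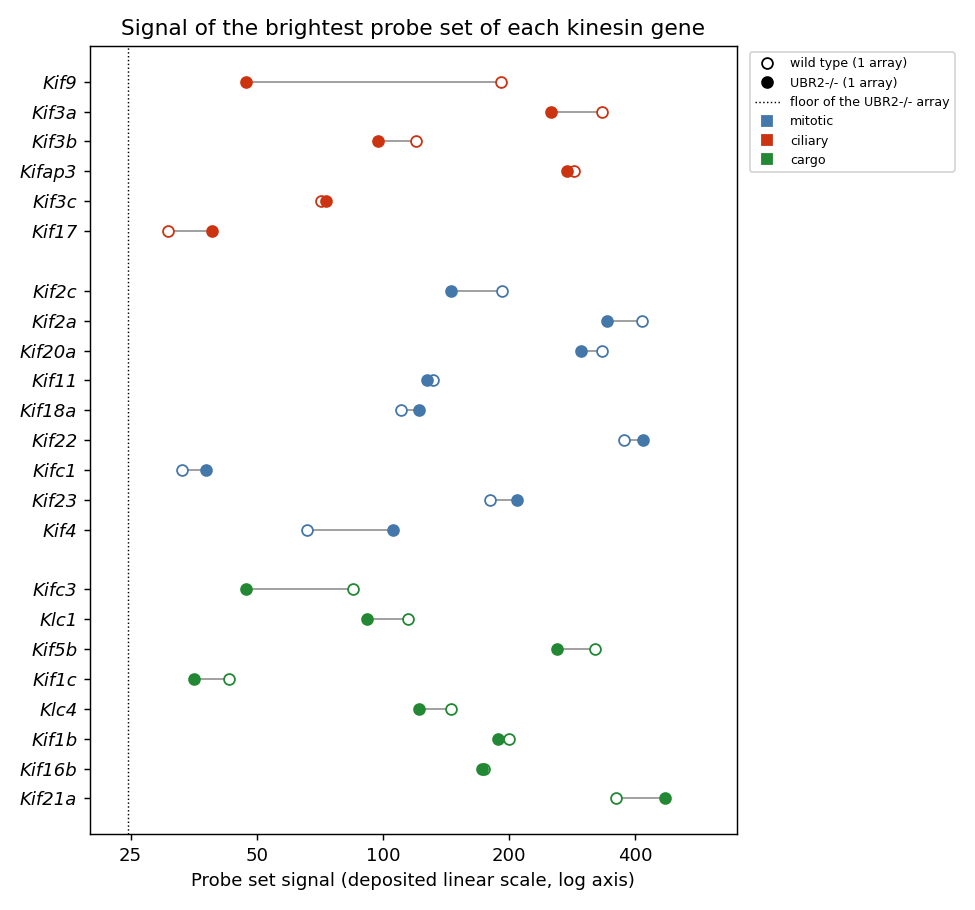
Signals of the 23 compared kinesin genes on the wild type (open circles) and UBR2-/- array (filled circles), 1 array each, by the brightest probe set of a gene, on a log axis in the deposited linear units. The widest gap is that of Kif9, from 191.2 to 47.2, and the dotted line marks the floor of the UBR2-/- array, 24.7.

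The ciliary and flagellar motors were led by Kif9, a motor of the sperm flagellum that takes part in sperm motility. Its signal was 191.2 in wild type and 47.2 in UBR2-/- testes. This is 4.05-fold lower, a log2 ratio of -2.02, and 67 of the 8091 genes had a lower ratio. Kif9 was read by 1 probe set, of the kind (names ending in _a_at) designed to bind several transcripts of a gene, so no further probe set checks it. Its signal on the UBR2-/- array lay above the floor.

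The kinesin-2 motor that drives intraflagellar transport is built from the motor subunits Kif3a and Kif3b and the adaptor subunit Kifap3. Kif3a had signals of 333.2 in wild type and 252.4 in UBR2-/- testes (log2 ratio -0.40), and its dimmer probe set had 77.4 and 54.6 (-0.50). Kif3b had 120.2 and 97.2 in its brightest probe set (-0.31). All 4 probe sets of Kif3b lay below 0, the others at -0.44, -0.19 and -0.83, the last with signals of 61.8 and 34.7. Kifap3 was nearly level, with 286.1 and 275.1 (-0.06), and its other probe set was below both floors. The remaining kinesin-2 members did not share this side of 0. Kif3c, an alternative to Kif3b as the partner of Kif3a, had 71.2 and 73.3 (0.04), a value that turned below 0 with loess and with spike-in scaling. Kif17, a kinesin-2 motor that works as a pair of like chains and has been linked to the handling of a CREM coactivator in germ cells, was dim at 30.7 in wild type and 39.2 in UBR2-/- testes (0.35), with 27.4 and 40.1 (0.55) in a second probe set and 5.4 and 9.9 in another that was below both floors. With spike-in scaling Kif17 was at 0.00036. Kif3a, Kif3b and Kifap3 were each below 0 by less than 2-fold. The genes with GTTGCC in their windows, Kif9, Kif3a, Kif3c and Kif17, were at -2.02, -0.40, 0.04 and 0.35. A link between the motif and these ratios was not tested.

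By the median, the cargo of kinesin-2 stood farther from 0 than Kif3a, Kif3b and Kifap3 in their brightest probe sets. Of 16 compared genes of the intraflagellar transport complexes, 6 were 2-fold or more below wild type, 0 as far above it and 10 lay between, against the 3.52% lower of all genes. All 16 lay below 0, against 41% of all genes, and the median was -0.66. All 16 stayed below 0 under median, quantile, loess and spike-in scaling. The dimmest Kif3b probe set, at -0.83, was lower than the median of the 16. Ift172 and Ift140, large subunits of the trains that move outward and inward, had the lowest ratios. Ift172 had signals of 322.1 in wild type and 123.1 in UBR2-/- testes (-1.39). Ift140 had 656.6 and 255.1 (-1.36). The highest were Ttc30b, a subunit of the outward train, at -0.23 and Hspb11, another of its subunits, at -0.04. Of the 16 genes 13 had a lower ratio than Kif3a, 14 a lower ratio than Kif3b and 15 a lower ratio than Kifap3. The difference between motor and cargo genes was not tested.

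**Figure D3:**
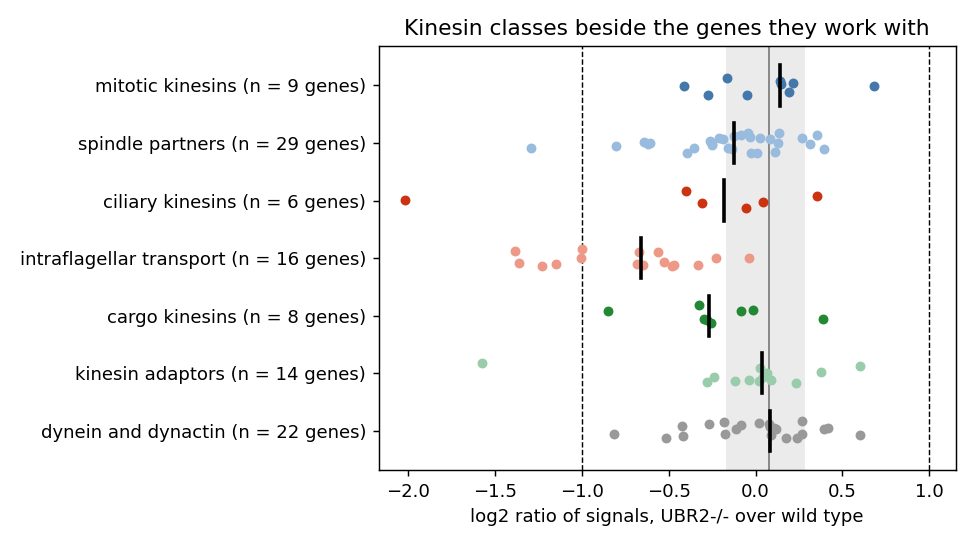
Log2 ratios (UBR2-/- over wild type) of the kinesin classes and of genes they work with; each point is a gene, black bars are medians, the grey line and band are the median and quartiles of all genes, and dashed lines mark 2-fold. The 16 intraflagellar transport genes all lie below 0 with a median of -0.66.

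Among the mitotic motors 0 of 9 compared genes were 2-fold off in either direction, against 3.52% of all genes lower and 0.346% higher. Ratios of the mitotic motors ran from -0.41 to 0.68. The lowest were the microtubule-shortening motors. Kif2c, which corrects attachments of chromosomes to the spindle, had signals of 192.7 in wild type and 145.1 in UBR2-/- testes in its brightest probe set (-0.41), and 129.5 and 121.7 (-0.09) and 74.4 and 66.7 (-0.16) in others. Without probe sets that can bind several transcripts it was at -0.09, so its size rests on the brightest. Kif2a, a relative at spindle poles, had 414.5 and 343 (-0.27), with further probe sets at -0.23, -0.15 and 0.02. Kif20a, a motor of cell cleavage, had 333.6 and 297.1 (-0.17). The bipolar spindle motor Kif11, which pushes the poles apart, had 132 and 127.5 (-0.05) and all 3 of its probe sets between -0.23 and -0.05. By their brightest probe sets these 4 genes were lower in UBR2-/- testes, by less than 1.5-fold.

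The other compared mitotic motors lay above the median of all genes by their brightest probe sets, though not by every probe set. Kif4, a motor on chromosome arms and the spindle midzone, had the highest ratio of all kinesins, with 66 in wild type and 105.7 in UBR2-/- testes (0.68, or 1.60-fold), by 1 probe set. It is the X-linked member. Of 274 compared X-linked genes 33 had a higher ratio than Kif4, and their median was 0.35, against 0.06 for autosomal genes. Kif23, which with Racgap1 bundles the midzone for cleavage, had 180.6 and 209.3 (0.21), and 60.7 and 63.8 (0.07) in a second probe set. Kifc1, which walks the other way along microtubules and focuses spindle poles, was dim at 33.2 and 37.9 (0.19) by a probe set that may also bind near-identical copies such as Kifc5b. The chromosome motor Kif22 had 377 and 417.2 (0.15) in its brightest probe set, 131.1 and 122.9 (-0.09) and 65.6 and 65.7 (0.00) in the others. Kif18a, which helps chromosomes align at the spindle equator, was read at 110.7 and 122.2 (0.14). With spike-in scaling Kif18a, Kif22, Kif23 and Kifc1 turned below 0, to between -0.21 and -0.14, and Kif4 stayed above it at 0.33.

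The partners of the mitotic motors were then counted. Of 29 compared spindle and chromosome partners, 1 (Nuf2) was 2-fold or more below wild type, 0 were as far above it and 28 lay between, with 19 below 0 and a median of -0.12. Of all genes 3.52% were as far below wild type and 41% lay below 0, and a difference from the mitotic motors was not tested. Nuf2, a kinetochore subunit that holds microtubules, had signals of 303.6 in wild type and 124.1 in UBR2-/- testes (-1.29), and Spag5, a spindle protein, had 308.7 and 177 (-0.80). At the other end Spc25, a kinetochore subunit in the same complex as Nuf2, was at 0.40 and Cdk1, the kinase that starts division, at 0.35. With spike-in scaling 28 of the 29 lay below 0. Cenpe, a kinetochore kinesin whose symbol is outside the choice of members, was not among the compared genes.

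Of the cargo motors and light chains 0 of 8 compared genes were 2-fold off, against 3.52% of all genes lower and 0.346% higher. Below 0 lay 7 of the 8, against 41% of all genes. Kifc3, a motor that walks toward the minus ends of microtubules and serves cell junctions and apical transport, had the lowest ratio of the class. It had signals of 84.8 in wild type and 47.1 in UBR2-/- testes, 1.80-fold lower (-0.85) by 1 probe set, and 4.54% of all genes had a lower ratio. With spike-in scaling it was 2.30-fold lower. At 1.5-fold it and Kif9 were the kinesins lower and Kif4 the one higher, against 7.71% of all genes lower and 4.25% higher.

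Kinesin-1, the general transport motor, is made of heavy chains of the Kif5 family and light chains that bind cargo. Its members stayed close together. The heavy chain gene Kif5b had 320.7 in wild type and 261.1 in UBR2-/- testes (-0.30), and the other 3 probe sets above the floor rule were at -0.21, -0.13 and -0.10. The light chain gene Klc1 had 114.8 and 91.6 (-0.33) and 80.4 and 60.6 (-0.41). Klc4, a related light chain, had 145.8 and 122 (-0.26) and 46.3 and 34.6 (-0.42). All 8 of these probe sets were lower on the UBR2-/- array, by less than 1.5-fold.

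Kinesin-3 motors carry vesicles and endosomes. Kif1c had 42.9 and 35.4 (-0.28). Kif1b had 199.6 and 188.1 (-0.09) with probe sets from -0.09 to 0.35, and the endosome motor Kif16b had 174.5 and 172.4 (-0.02) and 65.9 and 72.7 (0.14). The mean over probe sets took Kif1b and Kif16b to 0.06 each. Kif21a, a motor that also restrains microtubule growth, was the cargo gene above 0, with 361 and 471.7 (0.39) by 1 probe set.

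**Figure D4:**
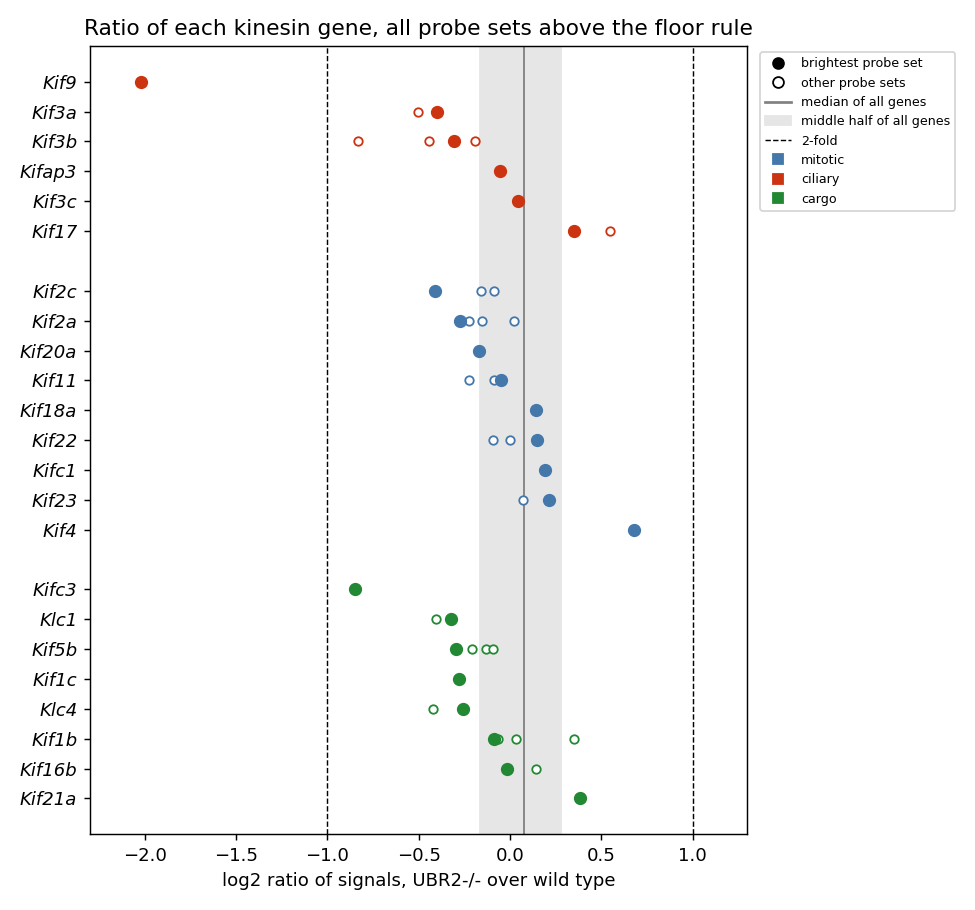
Log2 ratios of the 23 compared kinesin genes, with the brightest probe set filled and others above the floor rule open; the grey line and band show the median and quartiles of all genes and dashed lines mark 2-fold. Kif9 at -2.02 is the point beyond 2-fold, and the 4 probe sets of Kif3b spread from -0.83 to -0.19.

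Adaptors and the opposing motor were compared with the cargo class. Of all genes 3.52% were at least 2-fold lower and 0.346% at least 2-fold higher. Of 14 compared adaptor genes 1 was 2-fold or more below wild type, 0 were as far above it, and the median was 0.03. That member was Mapk8ip2, a scaffold that binds kinesin light chains, with signals of 155.7 in wild type and 52.3 in UBR2-/- testes (-1.57). Rab11fip5, which links recycling endosomes to kinesin, was at -0.28, and at the other end were Map7, which recruits kinesin-1 to microtubules, at 0.38 and Fez2 at 0.60. The median turned to -0.02 with loess and -0.32 with spike-in scaling. Of 22 genes of cytoplasmic dynein, the motor that walks toward minus ends, and of its activator dynactin, 0 were 2-fold off and the median was 0.08, or -0.27 with spike-in scaling. Their lowest were Hook2, an adaptor of dynein, which was at least 1.76-fold lower with the UBR2-/- signal at the floor, and Capza1, an actin-capping subunit of dynactin, at -0.52. Their highest were the light chains Dynlt3 at 0.60 and Dynlrb1 at 0.42.

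The other 9 kinesin genes were too dim to be compared, with signals from 0.4 to 24.6 in their brightest probe sets. These were Kif1a, Kif5a, Kif5c, Kif21b and Kifc2, which are known mainly from neurons, Kif13a, Klc3, Kif12 and Kifc5b. Klc3, a light chain known from the tail of spermatids, had 12.4 in wild type and 13.8 in UBR2-/- testes. Kif5a had 19.9 and 7.1 in a probe set that could pass only through the wild type array, and with the floor at the 25th percentile it was at least 2.34-fold lower.

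Cell type markers were read beside these groups, and in bulk tissue fewer cells of a type and less RNA per cell cannot be told apart. Of 23 compared pachytene and later spermatocyte genes, 18 were 2-fold or more below wild type, against 3.52% of all genes. All 23 lay below 0, against 41% of all genes, with a median of -2.65. Adam3, Ccna1 and Pgk2 were below the floor in UBR2-/- testes, at 13.7, 9.3 and 4.1. These could pass only through the wild type array and only as lower. The summed signal of the 24 listed pachytene and later genes on the array was 17018 in wild type and 3726 in UBR2-/- testes. Their lowest were the sperm surface gene Adam5 at -4.57 and Crisp2 at -3.90, and their highest Aurkc, a meiotic kinase, at -0.73 and Tbpl1, a TBP relative, at -0.68. Kif9 and the intraflagellar transport genes lay on the same side of 0 as this list. So did 15 of the 23 kinesins, with 7 of 8 cargo genes among them, and 41% of all genes. Of 14 early prophase genes of meiosis 1 passed 2-fold as lower (Spo11 at -1.27, followed by Msh4 at -0.42), the highest were Tex15 at 0.38 and Prdm9 at 0.61, the median was -0.07 and the sums were 12406 and 11734. Of 18 Sertoli cell genes 16 lay above 0 and 2 below it, against 41% of all genes below 0. Espn, at 22.4 in wild type testes, was below the floor there. It could pass only through the UBR2-/- array and only as higher. The Sertoli median was 0.33, and the sums of the 20 listed genes on the array were 17991 and 23028. Amh at -1.23 was the Sertoli gene beyond 2-fold, followed by Rhox5 at -0.08, and the highest were Gata4 at 0.52 and Fshr at 0.58. With spike-in scaling the Sertoli median turned to -0.02, with 10 of 18 below 0 and 2 below the median of all genes. The part of these cell types in the kinesin values was not tested.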

How the data were processed

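Both arrays were Affymetrix mouse genome 430A 2.0 arrays of biotin-labelled cRNA, 1 for wild type and 1 for UBR2-/-. The authors deposited linear probe set intensities (signals), and the submitters' processing notes name MAS5, which turns probe brightness into a signal per probe set; neither its settings nor a genome build is stated there. The 2% trimmed mean was 150.0 on each deposited array, so both had been scaled to a common level, which was kept. Of 22626 probe sets that were not controls, 20380 had 1 symbol in the platform annotation, 691 several and 1555 none; those with 1 were used, and 20351 matched the RefSeq gene table for current names. The brightest probe set stood for its gene, and with 1 signal at the floor a fold is a lower bound ("at least"). With 1 array per genotype no test was run, and the number of arrays limits the precision. Members, classes, partner and marker lists, motifs and the rule for named genes were chosen with earlier results of these data known. The rule names every member, giving all signals of those farthest from 0 in each class, and the 2 lowest and 2 highest genes of each list. Alternatives were median, quantile, loess (span 0.3) and spike-in scaling, floors at the 25th and 60th percentiles, the mean ratio of a gene's probe sets, a pseudocount of 10 in place of a floor, dropping probe sets ending in _s_at, _x_at or _a_at, and thresholds of 1.5-fold and 3-fold. The ratio code was tested on simulated data. Python 3.11.15, pandas 2.3.3 and statsmodels 0.14.6 were used.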

Additional observations from a re-analysis of the deposited data

How the results depend on the processing

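At least 2-fold lower was 1 kinesin gene, Kif9, with the deposited scale. The number was 2 with spike-in scaling (Kif9 and Kifc3), 2 with the floor at the 25th percentile (Kif9 and Kif5a) and 2 at a threshold of 1.5-fold. It was 0 without probe sets ending in _s_at, _x_at or _a_at, which leaves Kif9 with no probe set. At least 2-fold higher was 0 under every alternative that was run except the threshold of 1.5-fold, with 1 (Kif4). Spike-in scaling moved the median of all genes from 0.07 to -0.28 and the medians of all kinesins to -0.44, of ciliary to -0.53, of cargo to -0.62 and of mitotic genes to -0.21; the other alternatives moved them by less than the SD of a probe set, but the mitotic median of 0.14 turned to -0.05 when the floor was the 60th percentile and was 0.02 with the mean over probe sets and 0.0022 without probe sets ending in _s_at, _x_at or _a_at. Under each of the 4 scalings 16 of 23 kinesins lay below the median of all genes. Kif9 ranged from -2.37 to -1.10, the latter a bound with the floor at the 60th percentile. That SD was 0.21 over all pairs. Of 197 values of single genes under alternatives 174 moved by less than that SD or kept their call, 22 moved more and 1 became 2-fold (Kifc3). Spike-in scaling gave the last and all that moved more, except Kif2c without probe sets ending in _s_at, _x_at or _a_at. It moved every compared kinesin by more than that SD or to 2-fold, apart from Kif9, which kept its call. No paired analysis was possible because each genotype has 1 array. Dim signals limit Kif17, Kifc1 and Kif1c most.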

Other observations

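Further cell type lists were read on the same arrays. All 9 compared peritubular myoid genes lay above 0, with a median of 0.50, and 0 were 2-fold off. Of all genes 41% lay below 0, 3.52% were at least 2-fold lower and 0.346% higher, and the median was 0.07. Des was below the floor in wild type testes, at 21.2. It could pass only through the UBR2-/- array and only as higher. The myoid ratios ran from Cnn1 at 0.25 and Tagln at 0.34 to the contractile genes Tpm2 at 0.59 and Myh11 at 0.64. Of 10 spermatogonia genes 1 passed 2-fold as lower, Id4 at -1.07, with Dmrtb1 at -0.82, Stra8 at 0.50, Cdh1 at 0.53 and a median of 0.29. The spermatid list had 17 genes on the array, with 9 below the floor on both arrays and 7 bright enough to compare. A drop of 2-fold or more was seen in 5 of these 7, and a rise that large in 1. Among the 5, Acr and Acrbp were below the floor in UBR2-/- testes, at 20.5 and 19.1. Both could pass only through the wild type array and only as lower. Among all genes the shares were 3.52% and 0.346%. The median of the 7 was -1.22. Tekt1 was at -2.57, Acr was at least 5.01-fold lower, Odf2 was at -0.12 and Prm1 at 1.41. Which cells gave these signals was not tested. Leydig cell genes (8 compared) had a median of 0.21, from Cyp11a1 at -0.59 and Akr1c14 at -0.51 to Ptgds at 0.54 and Star at 0.80. Endothelial genes (7 compared) had a median of 0.32, with Esam at -0.30, Pecam1 at least 1.21-fold lower, Kdr at least 1.51-fold higher and Cldn5 at 0.94. Macrophage and leukocyte genes (11 compared) had a median of -0.18, with Fcer1g at -0.43, Laptm5 at -0.39, Tyrobp at 0.14 and Ptprc at least 1.54-fold higher. In the last 3 lists 0 genes were 2-fold off. With spike-in scaling the medians of spermatogonia, Leydig and endothelial genes turned to -0.06, -0.15 and -0.25, and that of myoid genes was 0.15 with 2 of 9 below 0.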
